A study of Mus musculus with 2 samples.

Results

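Matrix metalloproteinases (MMPs), the ADAMTS proteases, the ADAMTS-like (ADAMTSL) glycoproteins and the tissue inhibitors of metalloproteinases (TIMPs) were followed in cultured mouse ureters labelled as lacking 2 fibroblast growth factor receptors in their mesenchyme. Members were taken by gene symbol from the array, as every gene spot named Mmp, Adamts, Adamtsl or Timp with a number. The rule found 51 of the 30011 genes on the array, covered by 74 of 39429 probes. They comprised 23 MMP, 19 ADAMTS, 5 ADAMTSL and 4 TIMP genes.

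Mutant ureters, here Fgfr1/2cDKO, carried a Tbx18(cre/+) allele together with Fgfr1(fl/fl) and with Fgfr2(fl/fl), while control ureters carried Fgfr1(fl/?) with Fgfr2(fl/?) and have no Cre allele listed. All embryos were of strain NMRI, and all ureters were dissected at E15.5 and kept for 6 days on transwell membranes. There were 2 two-colour arrays, each carrying 1 Fgfr1/2cDKO RNA and 1 control RNA side by side. On array 1, whose label is male, the Fgfr1/2cDKO RNA was in Cy5, and on array 2, whose label is female, it was in Cy3. Effects of replicate, sex label and dye cannot be told apart. Cre driven from the Tbx18 locus acts in the mesenchyme around the ureteric epithelium and in its descendants, so the urothelium is not targeted. The presence of Cre at that locus cannot be told apart from receptor loss. Nothing in the labels says how many embryos gave an RNA sample, so p-values cover only the spread of these arrays, which may be technical.

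MMPs are zinc-dependent enzymes that are made as inactive precursors and cut collagens, gelatins, laminins, proteoglycans and signalling proteins once the prodomain is removed. ADAMTS enzymes are secreted proteases with thrombospondin repeats that trim procollagens, large proteoglycans and microfibril components, while ADAMTSL proteins share the repeats but have no protease domain. TIMPs bind the active site of MMPs and, in the case of TIMP3, also of ADAM and ADAMTS enzymes. Together they set how the matrix of a growing tube is laid down and remodelled.

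Values are log2 ratios of Fgfr1/2cDKO over control on each array, and log2 signals of the separate channels. Every test of the main fit rests on ratios within an array and within a probe, since dyes differ between arrays and probes differ in brightness. Where the 4 signals of a gene are said to overlap or not, this describes them as they stand, with the dyes of the genotypes swapped between the arrays. Each gene stands for its brightest probe, and was tested if the signal of 1 genotype or both was well above background on the 2 arrays. A change was called at a limma adjusted p below 0.05 over all 22070 tested genes. By that rule 3.79% of tested genes were called, 1.76% as higher and 2.03% as lower in Fgfr1/2cDKO RNA. The median log2 ratio of all tested genes was -0.02, and the arrays' ratios correlated at r = 0.52 across genes, which are not independent replicates. In these bulk RNAs, fewer cells of a type and less RNA per cell cannot be told apart.

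Fgfr1 had log2 ratios of -0.22 and -0.44 on arrays 1 and 2, a mean of -0.33 ± 0.15 (SD, n = 2; limma adjusted p = 0.134), and Fgfr2 had ratios of 0.57 and 0.54, a mean of 0.56 ± 0.02 (limma adjusted p = 0.0309). Other probes of these genes on the array had means of -0.37 and -0.54 for Fgfr1 and of 0.76 for Fgfr2. The sources used here do not give where these probes lie relative to the floxed exons, so they do not check the genotype labels. "Fgfr1/2cDKO" is therefore used as a label throughout. Sex-linked genes went against the labels in part. On the male-labelled array the log2 signal of Xist, the X-inactivation transcript, was 6.80 in Fgfr1/2cDKO RNA and 8.74 in control RNA. On the female-labelled array the Y-linked gene Ddx3y stood at 6.55 in Fgfr1/2cDKO RNA and 9.38 in control RNA, and Eif2s3y at 6.71 and 9.67. The control RNA of each array thus carried signal of the other sex.

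Of the 51 members, 44 were tested and 5 were called, or 11.4% against 3.79% of all tested genes, with 2 higher and 3 lower in Fgfr1/2cDKO RNA. Adamts17 and Timp2 rose, and Mmp3, Mmp9 and Mmp10 fell. The other 39 tested members did not pass the test, and 15 of 44 had an unadjusted limma p under 0.05 (34.1%, against 22.5% of all tested genes). The median log2 ratio of the tested members was -0.02, with 0.03 on array 1 and -0.01 on array 2. In 16 members (36.4%) the arrays had opposite signs, against 33.5% of all tested genes. By class, MMPs had 0 called higher and 3 lower of 18 tested (median -0.10), ADAMTS genes 1 and 0 of 17 (median 0.10), ADAMTSL genes 0 and 0 of 5 (median 0.12) and TIMPs 1 and 0 of 4 (median -0.20). The members left untested were Adamts13, Adamts20, Mmp1a, Mmp1b, Mmp20, Mmp21 and Mmp25, and no ratio is given for them. The calls depended on the processing: none of the 5 was called from the mean processed signals of the scanner software, with median centring of each array or in separate-channel fits, and 1 of them, Adamts17, was called from the authors' value table. With other ways of combining the spots of a probe, tried after the data had been seen, the processed signals gave 0 to 3 called members. Calls were also gained: Mmp15 was called in 2 of 13 alternatives and Adamts4 in 1.

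**Figure D1:**
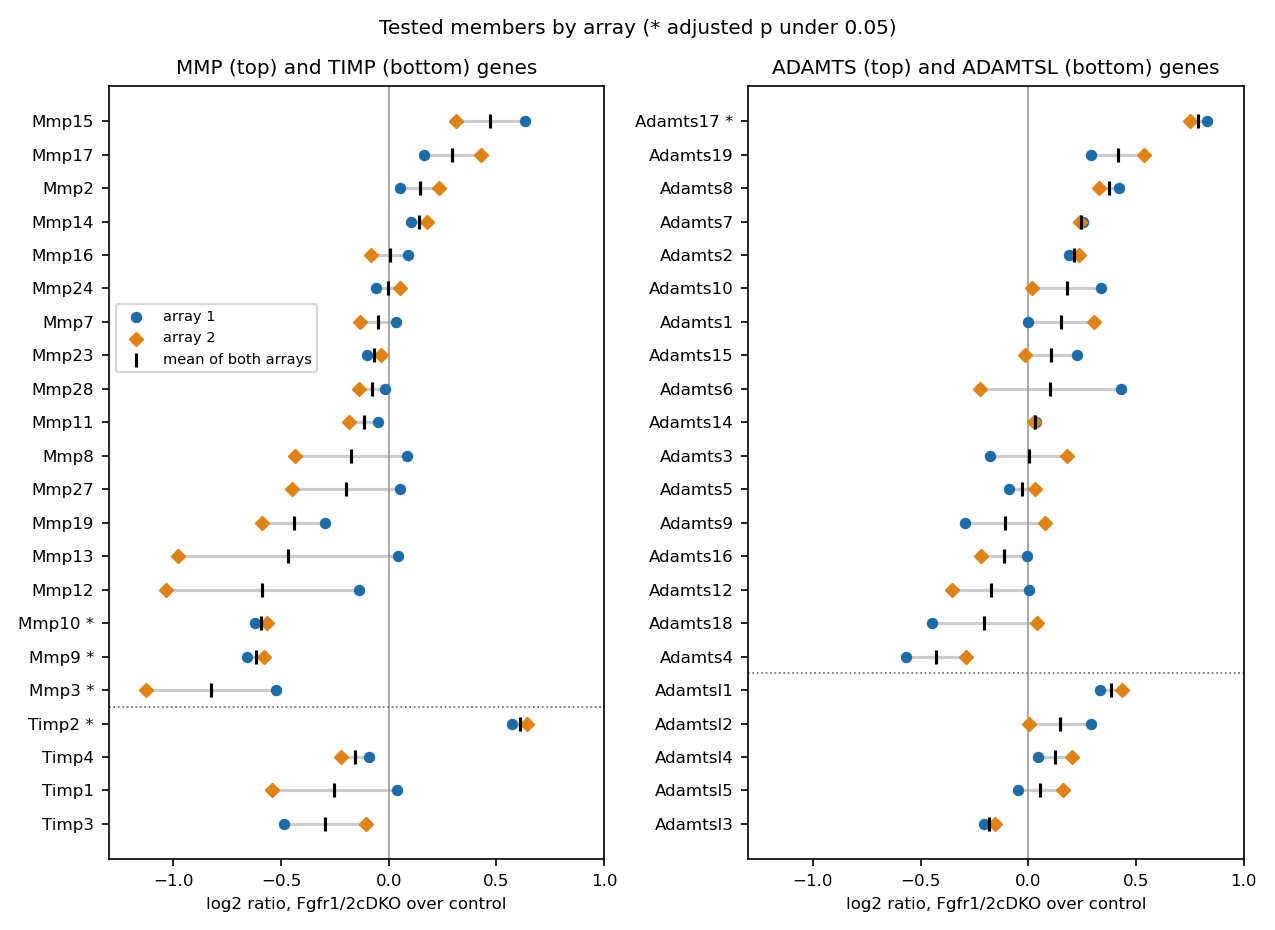
Log2 ratio of Fgfr1/2cDKO over control for each of the 44 tested members on array 1 (circles) and array 2 (diamonds), with the mean of both arrays as a black bar and called genes starred. Mmp3, Mmp9 and Mmp10 lie left of 0 on both arrays, Adamts17 and Timp2 lie right of 0 on both, and Mmp12 and Mmp13 show wide gaps between the arrays.

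The stromelysins, which cut proteoglycans, laminin and fibronectin and activate other pro-MMPs, held 2 of the 3 called MMPs. Mmp3 (stromelysin-1; probe at chr9:7455751-7455810, mm9) had log2 signals of 10.04 and 9.71 in Fgfr1/2cDKO RNA on arrays 1 and 2, against 10.57 and 10.84 in control RNA. Both Fgfr1/2cDKO signals lay below both control signals. The log2 ratios were -0.52 and -1.13, a mean of -0.82 ± 0.43 (SD, n = 2), which is 1.77-fold lower (limma adjusted p = 0.0271). Mmp10 (stromelysin-2; chr9:7510011-7510070) had signals of 7.05 and 7.85 in Fgfr1/2cDKO RNA, against 7.67 and 8.41 in control RNA. Fgfr1/2cDKO RNA was the lower one on each array, although its signal on array 2 was above the control signal of array 1. The ratios of Mmp10 were -0.62 and -0.57, a mean of -0.59 ± 0.04, or 1.51-fold lower (limma adjusted p = 0.0261). The mean was larger in size but not called with the software's processed signals (-1.01, limma adjusted p = 0.0717) and with the authors' value table (-0.97, limma adjusted p = 0.0513). Mmp11, a stromelysin by name that is known for acting on other substrates, had ratios of -0.05 and -0.18 and was not called (limma adjusted p = 0.555).

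Of the gelatinases, which cut denatured collagens and the type IV collagen of basement membranes, Mmp9 fell and Mmp2 did not pass the test. Mmp9 (chr2:164780620-164780679) had signals of 7.54 and 8.20 in Fgfr1/2cDKO RNA, against 8.19 and 8.78 in control RNA. It was lower in Fgfr1/2cDKO RNA on both arrays, although its signal on array 2 and the control signal of array 1 were nearly equal. The ratios were -0.66 and -0.58, a mean of -0.62 ± 0.06, or 1.53-fold lower (limma adjusted p = 0.0247). Mmp2 had ratios of 0.05 and 0.23, with a mean of 0.14 (limma adjusted p = 0.477).

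Collagenases and the macrophage elastase differed mainly on array 2. Mmp13 (collagenase-3; chr9:7282762-7282821), which cuts fibrillar collagens, had signals of 9.12 and 8.71 in Fgfr1/2cDKO RNA and 9.08 and 9.68 in control RNA. On array 1 the groups were close, and on array 2 Fgfr1/2cDKO RNA was the lower one. The ratios were 0.04 and -0.98, a mean of -0.47 ± 0.72 (SD, n = 2; limma adjusted p = 0.223). Mmp12 (macrophage elastase; chr9:7352935-7352994) had signals of 9.83 and 9.02 in Fgfr1/2cDKO RNA and 9.97 and 10.05 in control RNA. Again array 2 held most of the difference, with ratios of -0.14 and -1.03 and a mean of -0.59 ± 0.63 (limma adjusted p = 0.119). A second Mmp12 probe had a mean of 0.00 (0.000654 before rounding), with ratios of 0.21 and -0.21. Mmp8, the neutrophil collagenase, had ratios of 0.08 and -0.44 (limma adjusted p = 0.487).

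Among the remaining MMPs, Mmp19 and Mmp15 had the larger ratios, and neither was called. Mmp19 (chr10:128236221-128236280), which cuts basement membrane components, had signals of 9.63 and 9.46 in Fgfr1/2cDKO RNA, against 9.93 and 10.05 in control RNA. Fgfr1/2cDKO RNA was the lower one on each array and the signals of the groups did not overlap, with a mean ratio of -0.44 ± 0.21 (limma adjusted p = 0.0752). Mmp15 (chr8:97897703-97897762) encodes a membrane-type MMP, one that is anchored in the cell surface. Its signals were 8.84 and 9.06 in Fgfr1/2cDKO RNA, against 8.21 and 8.74 in control RNA. Fgfr1/2cDKO RNA was the higher one on each array, with ratios of 0.63 and 0.31 and a mean of 0.47 ± 0.23 (limma adjusted p = 0.066). Of 6 membrane-type MMPs 5 were tested and 0 called, with a median log2 ratio of 0.14. Mmp14, the best known of them and an activator of pro-MMP2, had ratios of 0.10 and 0.18 (limma adjusted p = 0.467). The other 11 MMPs had means between -0.20 (Mmp27) and 0.29 (Mmp17). Mmp16, Mmp24 and Mmp28 were not well above background in Fgfr1/2cDKO RNA on either array, and their ratios have no reliable size.

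**Figure D2:**
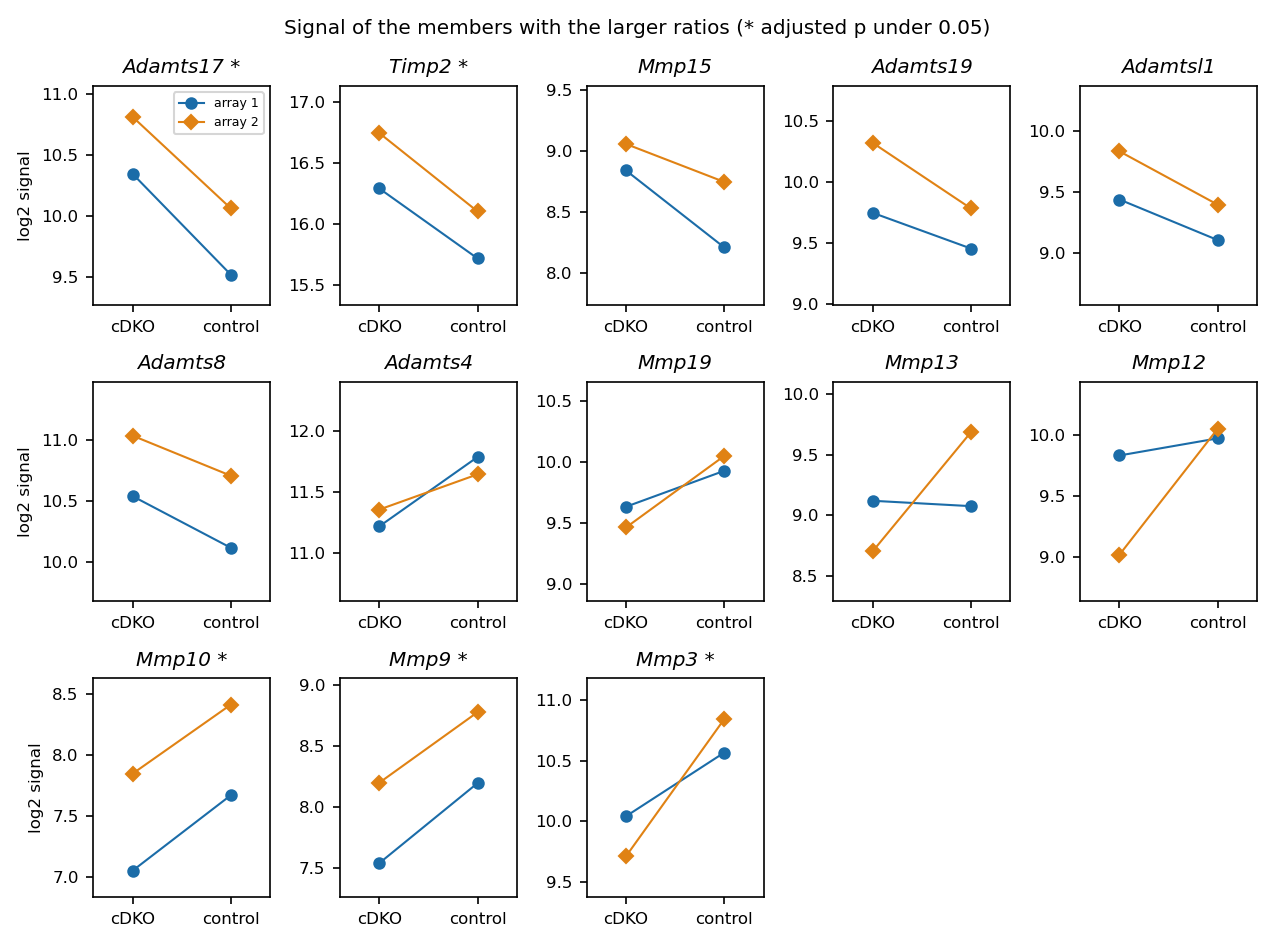
Log2 signal of the 13 members that were called or had a mean log2 ratio of at least 0.3 in size, with Fgfr1/2cDKO RNA left and control RNA right. Lines join the channels of array 1 (circles) and array 2 (diamonds), each panel spans the same height on the log2 axis, and called genes are starred. Lines of Adamts17 and Timp2 run down to control on both arrays, those of Mmp3, Mmp9 and Mmp10 run up, and those of Mmp12 and Mmp13 are steep on array 2.

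The gene cluster of chromosome 9 holds 10 of the 23 MMPs, within 414.9 kb from the first probe of Mmp13 to that of Mmp7. Of these, 7 were tested and 2 called lower. All 7 had a mean log2 ratio below 0, with a median of -0.47, while Mmp7 turned to 0.07 with median centring of each array. Mmp7 was dim, with log2 signals from 6.85 to 7.06, and was not well above background in Fgfr1/2cDKO RNA on array 1. Only Mmp3, Mmp10 and Mmp12 were below 0 on both arrays. The cluster's median was 0.03 on array 1 and -0.57 on array 2. The 11 tested MMPs elsewhere had a median of -0.00 (-0.0022 before rounding), with -0.02 and -0.04 on the arrays. No test compared the cluster with the rest.

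**Figure D3:**
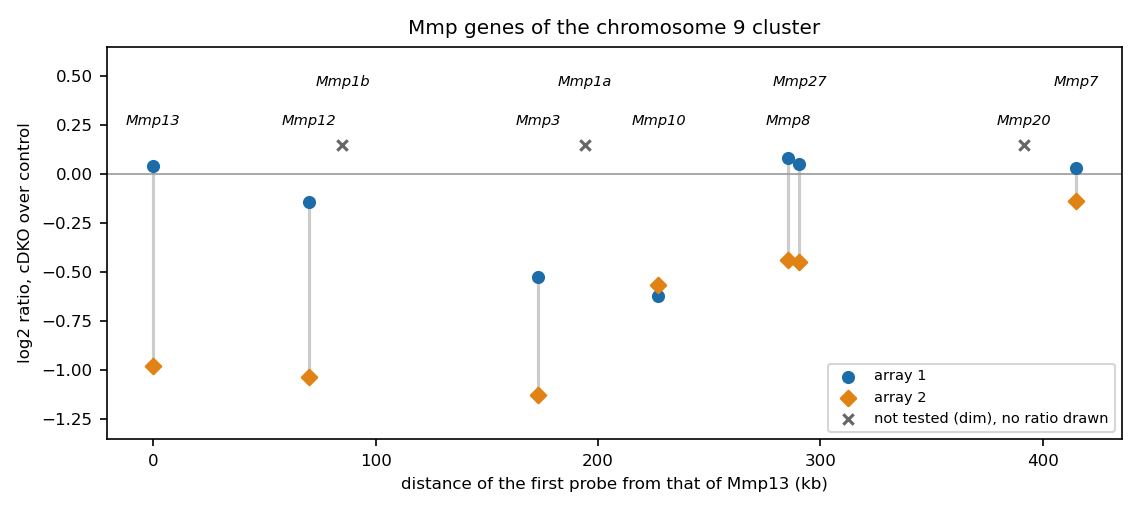
Log2 ratio of Fgfr1/2cDKO over control for the Mmp genes of the chromosome 9 cluster, placed by the distance of the first probe from that of Mmp13 in kb, for array 1 (circles) and array 2 (diamonds). Crosses mark the 3 genes that were not tested and carry no ratio. Array 2 values lie below 0 at all 7 tested genes, and array 1 values do so at Mmp12, Mmp3 and Mmp10.

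Promoters of several of these genes are known to hold AP-1 sites, the element bound by Fos and Jun, near the start of transcription. Promoter sequences of RefSeq (GRCm38.p6) covered 36 of the 51 members with 39 promoters, and the 250 bases before each start were searched on both strands. The motifs, chosen after the members' values had been seen, were AP-1 (TGAGTCA or TGACTCA), PEA3 (AGGAAG or CTTCCT) and the TATA box (TATAAA or TTTATA). AP-1 was found in 7 of the 39 promoters, against 4.46% of all 32851 promoters. All 7 belonged to the cluster: Mmp13, Mmp12, Mmp1b, Mmp3, Mmp1a, Mmp10 and Mmp7. They were 7 of the cluster's 12 promoters, and Mmp8, Mmp20 and Mmp27 had no AP-1 letters. Coverage was uneven, since all 10 cluster genes had a promoter and every member without one lies outside the cluster. PEA3 was found in 14 of 39, against 29.5% of all promoters, and the TATA box in 10 of 39, against 12.4%. The AP-1 letters are therefore present at called genes (Mmp3, Mmp10), at genes that did not pass the test (Mmp12, Mmp13, Mmp7) and at untested ones (Mmp1a, Mmp1b). A match is a description of the letters, and no factor was measured at them. Mmp9 has no promoter in the table used. The full windows of both called genes of the cluster are read 5′ to 3′ along the gene, with GRCm38.p6 positions. AP-1 and TATA letters are in capitals in both windows, and PEA3 letters in that of Mmp3, since the Mmp10 window has none.
Mmp3 promoter (chr9:7445572-7445821, + strand): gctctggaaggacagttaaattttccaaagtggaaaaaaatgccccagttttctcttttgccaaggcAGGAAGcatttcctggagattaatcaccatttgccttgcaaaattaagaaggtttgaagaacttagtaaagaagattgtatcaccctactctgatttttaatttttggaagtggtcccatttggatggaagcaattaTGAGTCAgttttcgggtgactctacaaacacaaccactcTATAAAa
Mmp10 promoter (chr9:7502092-7502341, + strand): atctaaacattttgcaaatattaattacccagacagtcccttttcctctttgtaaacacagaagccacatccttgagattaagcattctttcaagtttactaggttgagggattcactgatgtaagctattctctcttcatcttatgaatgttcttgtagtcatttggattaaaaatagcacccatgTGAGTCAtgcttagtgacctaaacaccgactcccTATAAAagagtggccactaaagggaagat

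The AP-1 letters of the other promoters stood between 35 and 93 bases before the start, and are shown in capitals with 10 bases on each side to let the flanks be compared (GRCm38.p6).
Mmp13 (chr9:7272469-7272495, + strand): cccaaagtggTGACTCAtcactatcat
Mmp12 (chr9:7347320-7347346, + strand): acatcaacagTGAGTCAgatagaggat
Mmp1b (chr9:7388103-7388129, - strand): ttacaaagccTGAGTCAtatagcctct
Mmp1a (chr9:7464058-7464084, + strand): ttgtcaaccaTGAGTCAcatagcctct
Mmp7 (chr9:7692017-7692043, + strand): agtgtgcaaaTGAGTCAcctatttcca

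Of the ADAMTS genes, Adamts17 rose. It encodes a protease that, with ADAMTS10, is linked to fibrillin microfibrils through inherited short stature in humans. Its brightest probe (chr7:74297448-74297507) had log2 signals of 10.34 and 10.81 in Fgfr1/2cDKO RNA, against 9.52 and 10.06 in control RNA. Both Fgfr1/2cDKO signals lay above both control signals. The log2 ratios were 0.83 and 0.75, a mean of 0.79 ± 0.05 (SD, n = 2), which is 1.73-fold higher (limma adjusted p = 0.0156). A second Adamts17 probe, 150 kb away in mm9 and dimmer (log2 signals from 7.17 to 7.39), had ratios of -0.19 and -0.05. Its mean was -0.12, so the rise was seen by 1 of 2 probes. As a mean over both probes the ratio was 0.34 and was not called (limma adjusted p = 0.093). Of the 4 genes Adamts6, Adamts10, Adamts17 and Adamts19, all had a mean above 0, and the other three did not pass the test. Adamts19 (chr18:59212971-59213030) had signals of 9.75 and 10.32 in Fgfr1/2cDKO RNA, against 9.45 and 9.78 in control RNA. It was higher in Fgfr1/2cDKO RNA on each array, with a mean of 0.42 ± 0.17 (limma adjusted p = 0.0808). Adamts10 had ratios of 0.34 and 0.02, and Adamts6 had 0.43 and -0.22.

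None of the 6 tested hyalectanases, the ADAMTS enzymes that cut versican and aggrecan, was called, and their median was 0.04. Adamts4 (aggrecanase-1; chr1:173190709-173190768) had signals of 11.22 and 11.35 in Fgfr1/2cDKO RNA, against 11.79 and 11.64 in control RNA. Fgfr1/2cDKO RNA was the lower one on each array, with a mean ratio of -0.43 ± 0.20 (limma adjusted p = 0.0791). Another Adamts4 probe went the other way, with ratios of 0.45 and 0.05. Adamts8 (chr9:30770384-30770443) had signals of 10.54 and 11.04 in Fgfr1/2cDKO RNA, against 10.12 and 10.71 in control RNA. It was higher in Fgfr1/2cDKO RNA within each array, with a mean of 0.38 ± 0.07 (limma adjusted p = 0.0876), while its other probe had a mean of -0.08. Adamts1 and Adamts5 had means of 0.15 and -0.03.

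Procollagen N-proteinases, which remove the amino-terminal propeptide of fibrillar procollagens, held 0 calls among Adamts2, Adamts3 and Adamts14, whose means were 0.21, 0.00 (0.0013 before rounding) and 0.03. Adamts7 and Adamts12, known to cut the cartilage oligomeric matrix protein, had means of 0.25 and -0.17 and were not called. Together, the 13 ADAMTS genes with a mean below 0.3 in size ranged from -0.20 (Adamts18) to 0.25 (Adamts7).

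No ADAMTSL gene was called among the 5 tested. Adamtsl1 (punctin; chr4:86074196-86074255) had signals of 9.44 and 9.84 in Fgfr1/2cDKO RNA, against 9.11 and 9.40 in control RNA. Fgfr1/2cDKO RNA was the higher one on each array, with ratios of 0.33 and 0.44 and a mean of 0.39 ± 0.07 (limma adjusted p = 0.0835). The other Adamtsl1 probes had means of 0.02 and -0.06. Means of the remaining 4 ranged from -0.18 (Adamtsl3) to 0.15 (Adamtsl2).

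Of the inhibitors, Timp2 rose and the other three did not pass the test. TIMP2 inhibits most MMPs and, bound to MMP14 at the cell surface, also takes part in activating pro-MMP2. Its brightest probe (chr11:118163146-118163205) had log2 signals of 16.29 and 16.74 in Fgfr1/2cDKO RNA, against 15.72 and 16.10 in control RNA. Both Fgfr1/2cDKO signals lay above both control signals, with ratios of 0.57 and 0.64 and a mean of 0.61 ± 0.05 (SD, n = 2), or 1.52-fold higher (limma adjusted p = 0.0248). The second Timp2 probe, whose 60 bases are spread over 6778 bases of mm9, had ratios of 0.09 and -0.03. As a mean over both probes the ratio was 0.32, and with median centring it was 0.27, neither of them called.

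Timp3 (chr10:85811696-85811755), the matrix-bound inhibitor, had signals of 14.05 and 14.40 in Fgfr1/2cDKO RNA, against 14.54 and 14.51 in control RNA. It was lower in Fgfr1/2cDKO RNA on both arrays, with a mean of -0.30 ± 0.27 (limma adjusted p = 0.205). Timp1 (chrX:20451802-20451861), a soluble inhibitor, had signals of 14.14 and 13.79 in Fgfr1/2cDKO RNA, against 14.11 and 14.33 in control RNA. The arrays disagreed in sign, with ratios of 0.04 and -0.54 (limma adjusted p = 0.339). Timp1 is the 1 X-linked member, and Xist, also X-linked, was 11.41 in Fgfr1/2cDKO RNA and 11.44 in control RNA on array 2, where the Timp1 ratio was -0.54. The Y-linked genes Ddx3y and Eif2s3y were there at 6.55 and 6.71 in Fgfr1/2cDKO RNA, against 9.38 and 9.67 in control RNA. Whether the sex of the RNAs bears on the Timp1 ratio was not tested. Timp4 (chr6:115196120-115196179), a soluble inhibitor too, had signals of 7.50 and 7.36 in Fgfr1/2cDKO RNA, against 7.59 and 7.58 in control RNA. Fgfr1/2cDKO RNA was the lower one on both arrays, with a mean of -0.16 ± 0.09 (limma adjusted p = 0.422).

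There were 15 members with at least 2 tested probes, and in 8 of them the probes had means of opposite sign. The share among all genes with at least 2 tested probes was not counted. The gap exceeded 0.5 log2 in 4 members, Adamts17, Adamts4, Mmp12 and Timp2, 2 of which are called genes. The other probes of Adamts17 and Mmp12 had low log2 signals, from 7.17 to 7.39 and from 6.79 to 7.04. The offset used draws ratios of dim probes to 0. Those of Adamts4 and Timp2 had higher signals, from 9.97 to 10.41 and from 13.00 to 13.14. With every tested probe fitted on its own, 6 of 60 member probes were called by limma, against 1471 of all 28915 tested probes (5.09%). Those 6 were the 5 called genes' brightest probes and the Mmp15 probe (limma adjusted p = 0.0466 over 28915 probes). The adjusted p of the Adamts17 probes was then 0.00589 and 0.555, and that of the Timp2 probes 0.0131 and 0.906. Whether the probes of a gene read different transcripts was not tested. The first 30 bases of the probes that differed most are shown, in lower case throughout since no base is singled out, with their mm9 position.
Adamts17, brightest probe (chr7:74297448-74297507, + strand): catgaaaaactcaccatttcgttgggagca
Adamts17, other probe (chr7:74147413-74147472, + strand): ggtaaaaggacggaatcccagcgacctctc
Timp2, brightest probe (chr11:118163146-118163205, - strand): ccgtgagcgttcttgtgccgtgttgatgcc
Timp2, other probe (chr11:118171964-118178741, - strand): taattgcaggaaaggcagaaggagatggca
Adamts4, brightest probe (chr1:173190709-173190768, + strand): aatgagaggaacaggatgtggtctggtatt
Adamts4, other probe (chr1:173189952-173190011, + strand): cgcatctttgagcattagttttctcatgtg

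**Figure D4:**
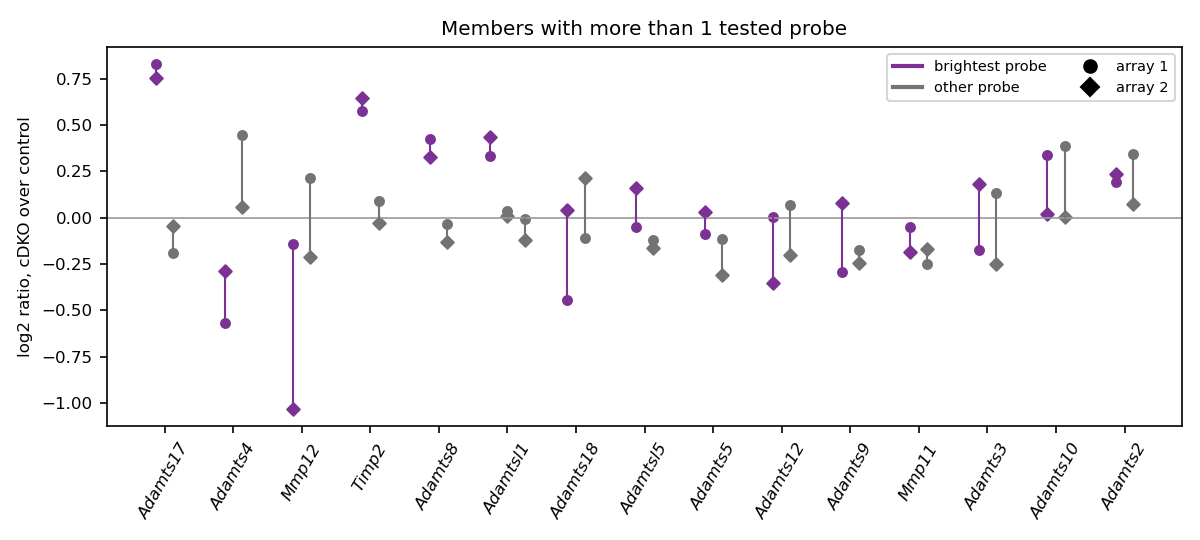
Log2 ratio of Fgfr1/2cDKO over control for each tested probe of the 15 members that have more than 1, with the brightest probe in purple, other probes in grey, array 1 as circles and array 2 as diamonds. Among the genes with the widest gaps, the brightest probes of Adamts17, Timp2, Adamts8 and Adamtsl1 lie above their other probes on both arrays. Those of Adamts4 and Mmp12 lie below.

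Genes that act beside the members were read from lists of proteases, activators and substrates. The plasmin system, which activates pro-MMPs, had 0 of 6 tested genes called and a median log2 ratio of -0.19. Serpinb2, an inhibitor of plasminogen activators, had a mean of -0.33 (limma adjusted p = 0.135), and Plaur, the urokinase receptor, had -0.22 (adjusted p = 0.258). Serpinb2 was dim, with log2 signals from 6.43 to 7.05. Its mean ran from -0.99 to -0.16 over 12 alternatives, 2 of which called it, so its ratio has no reliable size. Of 8 tested MMP activators, inducers, binders and other inhibitors, 0 were called, with a median of 0.19. Furin, which cuts the prodomain of membrane-type MMPs, had ratios of 0.03 and 0.41, and Cst3, a cysteine protease inhibitor, had -0.30 on each array (adjusted p = 0.149). Among 10 ADAM proteases, the membrane-bound relatives of ADAMTS enzymes, 0 were called higher and 1 lower. That gene, Adam33, had ratios of -0.48 and -0.50, a mean of -0.49 ± 0.02 (limma adjusted p = 0.0437), and its other probes had means of -0.42 and -0.18. It was called in 7 of 13 alternatives, with a limma adjusted p of up to 0.304. Cysteine cathepsins and their inhibitors had 0 of 8 called and a median of -0.22. Ctss and Ctsk, which encode cathepsins S and K, had ratios of -0.10 and -1.08, and of -0.02 and -1.0, so array 2 held nearly all of the difference.

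Thsd4, which encodes ADAMTS-like 6 but carries another symbol and so fell outside the members, was the 1 called gene of 10 fibrillin microfibril partners. Its log2 ratios were 0.82 and 0.70, a mean of 0.76 ± 0.09 (limma adjusted p = 0.0175), by 1 probe, and it was called in 9 of 13 alternatives, with a limma adjusted p of up to 0.184. The list's median was 0.17. The hyalectan proteoglycans and link proteins, substrates of ADAMTS1, ADAMTS4 and ADAMTS5 and their partners, had 1 of 7 called. Hapln3, a link protein that ties proteoglycans to hyaluronan, had ratios of 0.39 and 0.59, a mean of 0.49 (limma adjusted p = 0.0499), while its other probe had a mean of -0.16. It was called in 3 of 13 alternatives, with a limma adjusted p of up to 0.374. Versican (Vcan) had ratios of -0.03 and 0.07. Procollagen processing genes had 0 of 11 called and a median of -0.04. Plod2, a lysyl hydroxylase of collagen telopeptides, had a mean of -0.53 (adjusted p = 0.0631), and Lox, a crosslinking lysyl oxidase, had -0.27 (adjusted p = 0.185). Meprins, HTRA proteases, Prss23 and heparanases had 0 of 5 called, with means of -0.33 for the serine protease gene Prss23 and -0.32 for Hpse2, a heparanase relative without known enzyme activity.

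Markers of the tissue and of other cell types were read beside the members. All 5 smooth muscle markers were tested and 0 called, with a median of 0.00 (0.0019 before rounding) and the largest means at Myh11 (0.11) and Cnn1 (0.08), both of which were below 0 with median centring. Of 6 urothelial markers, all tested, 1 rose, with a list median of 0.44. That gene, the uroplakin gene Upk1a, had a mean of 0.97 (limma adjusted p = 0.0116), while the basal keratin gene Krt5 had -0.46 (limma adjusted p = 0.0833). The 4 mesenchymal markers had 0 called and a median of 0.08, with 0.44 for the collagen gene Col1a1 and -0.38 for the decorin gene Dcn. The 4 chondrocyte and bone markers had 0 called and a median of 0.02, with 0.17 for Sp7 and -0.07 for Ibsp. MMP9, MMP12 and MMP8 are known products of macrophages and neutrophils. The 6 macrophage markers, all tested, had 0 called higher and 2 lower, with medians of -0.19 on array 1 and -0.77 on array 2. Called lower were Mrc1 (-0.79, limma adjusted p = 0.0228) and C1qa (-0.59, limma adjusted p = 0.0499), in 8 and 5 of 13 alternatives. Summed signals of the 6 macrophage markers were 66650 and 42800 in Fgfr1/2cDKO RNA, against 76970 and 60810 in control RNA. Of 6 neutrophil markers 3 were tested and 1, Camp, fell (-0.89), while the defining S100a9, Ngp and Ltf were not well above background. Summed signals of the tested ones were 1068 and 842.4 in Fgfr1/2cDKO RNA and 1380 and 1449 in control RNA.

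Other marker lists held called genes as well, none of which was called in every alternative processing. The 5 endothelial markers had 3 called lower, Cdh5 (-0.69), Emcn (-0.63) and Tek (-0.49), and a median of -0.49, with sums of 3221 and 3065 in Fgfr1/2cDKO RNA and 4492 and 3985 in control RNA. All 4 adipocyte markers, Adipoq, Plin1, Fabp4 and Cfd, were called lower, with means from -2.63 to -1.40 and medians of -1.15 on array 1 and -2.99 on array 2. All 3 tested kidney tubule markers, Cdh16 (2.43), Umod (1.04) and Kcnj1 (1.02), were called higher, with medians of 1.54 and 0.55. Umod and Kcnj1 had low control log2 signals, from 6.3 to 6.4, and were each called in 6 of 12 alternatives. With the software's processed signals their means were 2.74 and 3.04, so these ratios have no reliable size. Of 3 mesothelial markers 2 were called higher, Msln (1.08) and Upk3b (0.55). The macrophage, neutrophil and adipocyte lists were lower on array 2 than on array 1. So were Ctss, Ctsk and, among other members, Mmp3, Mmp8, Mmp12, Mmp13, Mmp27 and Timp1. Matrix genes of other lists were too, such as Dcn (-0.09 and -0.68), the fibrillin gene Fbn1 (0.16 and -0.52) and Plod2 (-0.30 and -0.76). Col1a1 (0.21 and 0.67) was higher on array 2. The ratios of Mmp9 and Mmp10 were alike on both arrays, as were those of the macrophage marker Cd68 (-0.26 on each). The part of macrophages, neutrophils and adipocytes in the members' ratios was not tested.

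**Figure D5:**
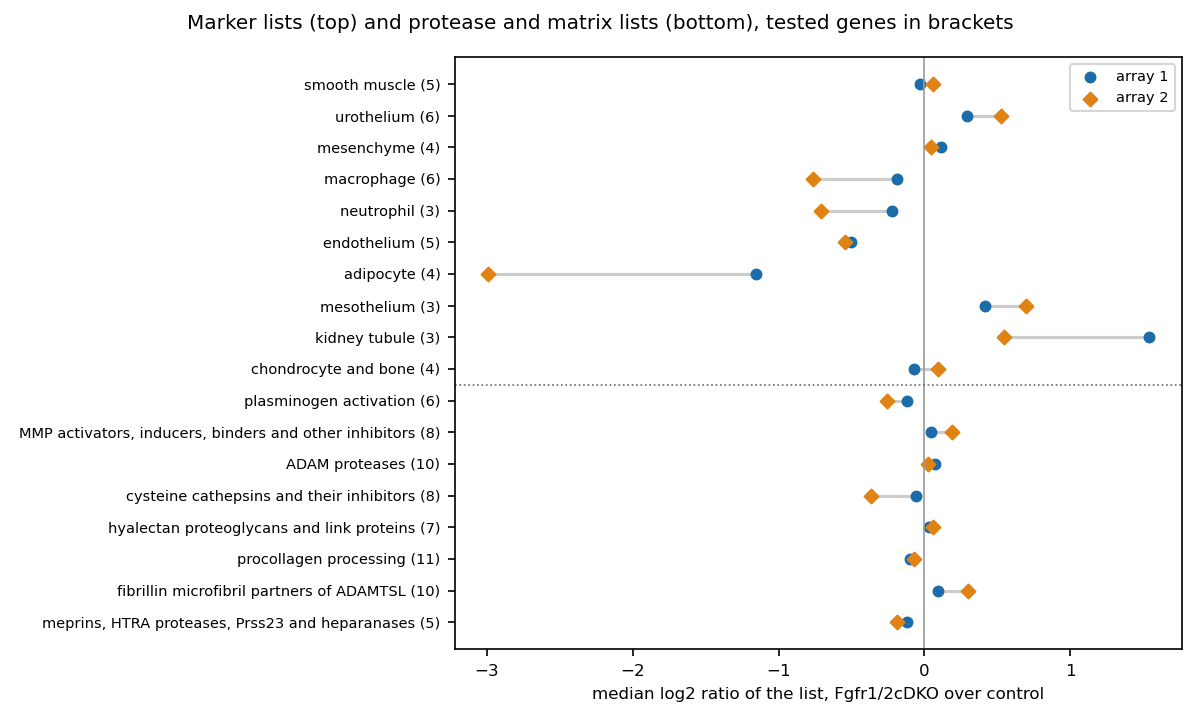
Median log2 ratio of Fgfr1/2cDKO over control for marker lists (above the dotted line) and lists of proteases and matrix genes (below it), on array 1 (circles) and array 2 (diamonds), with the number of tested genes in brackets. Adipocyte, macrophage and neutrophil lists lie further left on array 2, kidney tubule and mesothelium lie right of 0, and smooth muscle lies close to 0.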

How the data were processed

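Total RNA was hybridised to 2 dye-swapped two-colour arrays, 150 ng per labelling per the labels. The deposited intensity values are spot means and local background medians; the submitters' processing notes name Agilent Feature Extraction 10.7.3.1, and per the file headers it wrote them. The software's log10 ratio, red over green of its processed signals per the file headers, and the authors' deposited value table, a score holding a signed fold change, served as alternatives. That table's medians were 1 on both arrays, with 8097 and 9100 probes at exactly 1. Set against the scanner values, its direction is mutant over control, and its centring stays unknown. Probe coordinates are mm9, per the file headers. Exon and UTR annotation of that build was not used here.

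The normexp background correction used an offset of 50, which draws the ratios of dim probes to 0, and arrays were loess-normalised in limma 3.58.1 (R 4.3.3). Outlier spots were left out (3.17% and 3.65% of gene spots), the 4 spots of a probe were averaged, and ratios were tested against 0 with lmFit and eBayes, two-sided, Benjamini-Hochberg over 22070 genes. The fit has 1 residual degree of freedom and a prior of 7.45, and 2 arrays limit the precision. The median SD was 0.05 between spots and 0.11 between arrays. The code was tested on simulated data.

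A probe entered if most of its unflagged spots (a share above 0.5) were well above background. The share of spots was not set in advance. After the data had been seen 10 such rules were tried, some of which let in equal numbers of probes. They gave 768 to 856 called genes and the same 5 called members under each. The rule kept is the one whose gene counts match an earlier processing of these data. The members and lists were chosen with earlier results of these data known, and the member sub-groups by function, the motifs and the printed sequences after the members' values were seen. Any member may be named, with full values for called members, for means of at least 0.3 in size and for TIMPs, and each list by its called genes or otherwise its 2 largest means. Genes named beside these, such as Vcan and Krt5, were chosen after their values were seen. Mutant and control RNA are paired by sharing an array.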

Additional observations from a re-analysis of the deposited data

Results flagged for a closer look

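In 16 of the 44 tested members (36.4%, against 33.5% of all tested genes) the male-labelled array and the female-labelled array had log2 ratios of Fgfr1/2cDKO over control of opposite sign. With 1 array for each sex label the difference was not tested, and sex label, replicate and dye orientation cannot be told apart. The values that follow are the log2 ratio on the male-labelled array minus that on the female-labelled array. It was positive for 9 members, namely Mmp13 (1.02), Adamts6 (0.65), Timp1 (0.58), Mmp8 (0.52), Mmp27 (0.50), Adamts12 (0.35), Adamts15 (0.24), Mmp16 (0.17) and Mmp7 (0.17). It was negative for 7 members, namely Adamts18 (-0.49), Adamts9 (-0.37), Adamts3 (-0.36), Adamts1 (-0.31), Adamtsl5 (-0.21), Adamts5 (-0.12) and Mmp24 (-0.11). None of the 5 called members is among these. A call tests the mean of both arrays' ratios against 0, so opposite signs already make a call unlikely.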

How the results depend on the processing

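The 5 called members kept their direction in all 13 alternatives with a test, which used the same 2 arrays. Alternatives that changed only the probe filter or the fitted model left these members' ratios unchanged, so their direction could not differ there. Adamts17, Mmp3, Mmp9 and Mmp10 were called in 8 of the 13 alternatives and Timp2 in 6. Mmp15 was called in 2 of them (lowest limma adjusted p = 0.0416) and Adamts4 in 1 (limma adjusted p = 0.0471). Against 836 called genes and 5 called members, the scanner software's processed signals, averaged over spots, gave 10 and 0 by limma (4621 genes and 14 members at an unadjusted p under 0.05), median centring 0 and 0 (5584 and 10), values from the authors' deposited scores 170 genes and 1 member, separate channels with the array as a replicate block, which keeps the pairing of both RNAs, 214 and 0 (15 members unadjusted), with 28 convergence warnings in its correlation estimate, and separate channels with no replicate block 3 and 0 (6 members unadjusted). Over 8 ways, tried after the data had been seen, processed signals gave 10 to 214 genes and 0 to 3 members. Each rule for combining a probe's spots was run on the software's log ratio and on the ratio of its processed signals, with the same counts from both. Medians called 50 genes with outlier spots kept and, with them left out, 214 genes and Adamts17, Mmp9 and Mmp10. None of these counts matches that of an earlier processing. An intensity trend gave 1415 genes and 6 members, an offset of 16 gave 1190 genes and 6 members, and every probe on its own 1471 probes. The mean over a gene's probes gave 3 of 44 members, against 965 of all 22070 genes (4.37%). The share of calls that were higher was 46.5%, and 66.7% of the 3 calls with no block. The members' median of -0.02 became -0.07 with processed signals (-0.0687) and with the value table (-0.0697), -0.10 with median centring and -0.0471 with the mean over probes. It ran from -0.0068 to 0.0332 over the arrays left out in turn. Under median centring all genes had a median of -0.14, against -0.02 with loess, and it reversed Adamts1 (-0.079), Adamts14 (-0.158), Adamts15 (-0.088), Adamts2 (-0.073), Adamtsl4 (-0.053), Adamtsl5 (-0.112), Mmp14 (-0.0499), Mmp2 (-0.107), Mmp24 (0.132), Mmp28 (0.090), Mmp7 (0.067), Cnn1 (-0.274) and Myh11 (-0.156). Mmp16 reversed with processed signals (-0.13), no background correction (-0.025) and the value table (-0.11), and Adamts3 (-0.0287) and Adamtsl5 (-0.0431) with the mean over probes. The cause was not tested. Probes fitted singly and the rules on spots were added after seeing the data. Signal over background limits Mmp16, Mmp24 and Mmp28, and on array 1 also Mmp7.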
